A study of Mus musculus with 12 samples.

Results

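Haptoglobin and 8 further genes of the acute-phase response were followed in mouse heart: Hp, Lcn2, Cp, Lbp, Saa3, Orm1, S100a8, S100a9 and Serpina3n. The set was chosen by measured values: Hp was selected on having its highest level in the AOS-FMT hearts without following Alb, the albumin gene, used as a measure of liver RNA, and the other 8 were added as acute-phase genes. These 9 genes are among 17536 listed in the deposited table, and 6 of them are among the 13489 that passed the filter on low counts. Saa3, Orm1 and S100a8 did not pass it, so they have levels but no test. The series held 12 RNA-seq libraries of heart from the outbred mouse stock ICR, taken at 10 weeks of age. Each of 4 groups had 3 libraries: AOS-FMT (B+AOS10mg/kg-FMT, where B is taken as busulfan), control-FMT (B+Con-FMT), busulfan alone at 20 mg/kg, and control. Busulfan is an alkylating drug used before marrow transplants. AOS and FMT are not spelled out in the labels, and no busulfan dose is stated for either FMT group. Hearts are labelled as one tissue, with no chamber named. Nothing in the labels ties a replicate number to its own animal, so each p-value measures the spread between libraries, part of which may be technical.

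Acute-phase proteins are plasma proteins whose synthesis, mainly in liver, changes when interleukin-6, interleukin-1 and tumour necrosis factor signal through STAT3, NF-kB and C/EBP factors. Some are also made outside the liver, in fat, in myeloid cells and in stressed heart tissue. Their roles include binding free haemoglobin and iron, carrying bacterial lipid to receptors and blocking proteases. Albumin, transthyretin and transferrin are called negative acute-phase proteins because liver makes less of them during inflammation.

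Heart muscle markers were abundant in every library: the 10 heart muscle markers summed to 63535 to 98557 TPM in AOS-FMT, 94446 to 100610 in control-FMT, 103205 to 113132 in busulfan and 72190 to 99883 in control. TPM scales reads to gene length and to the library, so it allows levels to be set beside each other between genes. Estimated count totals ran from 11333650 to 14335688 per library. Markers of other tissues differed between libraries of the same group. The 10 atrial muscle markers summed to 5129, 65467 and 31917 TPM in AOS-FMT replicates 1 to 3, to 1653, 987 and 10580 in control-FMT, to 568, 2452 and 7521 in busulfan and to 3998, 47683 and 32013 in control. Replicates 2 and 3 of AOS-FMT and of control thus held far more atrial transcript than the other 8 libraries. The 18 hepatocyte markers, all with a count, summed to 139, 209 and 1137 TPM in AOS-FMT, to 123, 44.8 and 78.3 in control-FMT, to 52.5, 61.5 and 73.8 in busulfan and to 16.2, 86.2 and 48.5 in control. AOS-FMT replicate 3 stood apart on this list. Single genes of the list differed: Ahsg ran from 2.24 to 62.65 TPM in control and from 3.38 to 9.27 TPM in busulfan. Alb ran from 0.34 to 1.35 TPM in control and from 6.30 to 8.21 TPM in busulfan. A high sum in a control library thus need not mean high Alb. In bulk tissue, a lower level can come from fewer cells of a type or from less RNA per cell, and these cannot be told apart.

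In this tissue the 9 genes ran from high to low abundance. Cp had a median of 34.9 TPM over the 12 libraries, above 84.3% of listed genes, and Lbp and Serpina3n had medians of 12.3 and 9.94 TPM. Lcn2, S100a9, Hp and S100a8 lay close together, with medians of 5.08, 5.01, 4.65 and 4.36 TPM. Orm1 and Saa3 were near the floor of detection, with medians of 0.89 and 0.615 TPM and totals of 102 and 22 estimated counts over all 12 libraries.

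Hp, on chromosome 8 from base 109575128 to base 109579172 in the GRCm38.p6 gene table, encodes the plasma protein that captures free haemoglobin for uptake by macrophages. Its level was 7.17, 15.21 and 14.62 TPM in AOS-FMT replicates 1 to 3, 3.89, 4.81 and 8.77 TPM in control-FMT, 1.72, 2.10 and 2.88 TPM in busulfan and 2.68, 4.75 and 4.55 TPM in control. Every AOS-FMT library lay above every busulfan and every control library. The nearest were AOS-FMT replicate 1 at 7.17 TPM and control replicate 2 at 4.75 TPM. In scaled counts, 10.3% of all genes were higher without overlap over busulfan and 6.63% over control. AOS-FMT and control-FMT overlapped, since control-FMT replicate 3 exceeded AOS-FMT replicate 1. The group means were 12.3 ± 4.48 TPM in AOS-FMT, 5.82 ± 2.59 in control-FMT, 2.23 ± 0.591 in busulfan and 3.99 ± 1.14 in control (SD, n = 3 each). Neighbours in this order, AOS-FMT, control-FMT, control and busulfan, overlapped in TPM throughout. The counts behind these levels were modest, from 18 in busulfan replicate 1 to 194 in AOS-FMT replicate 2.

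**Figure D1:**
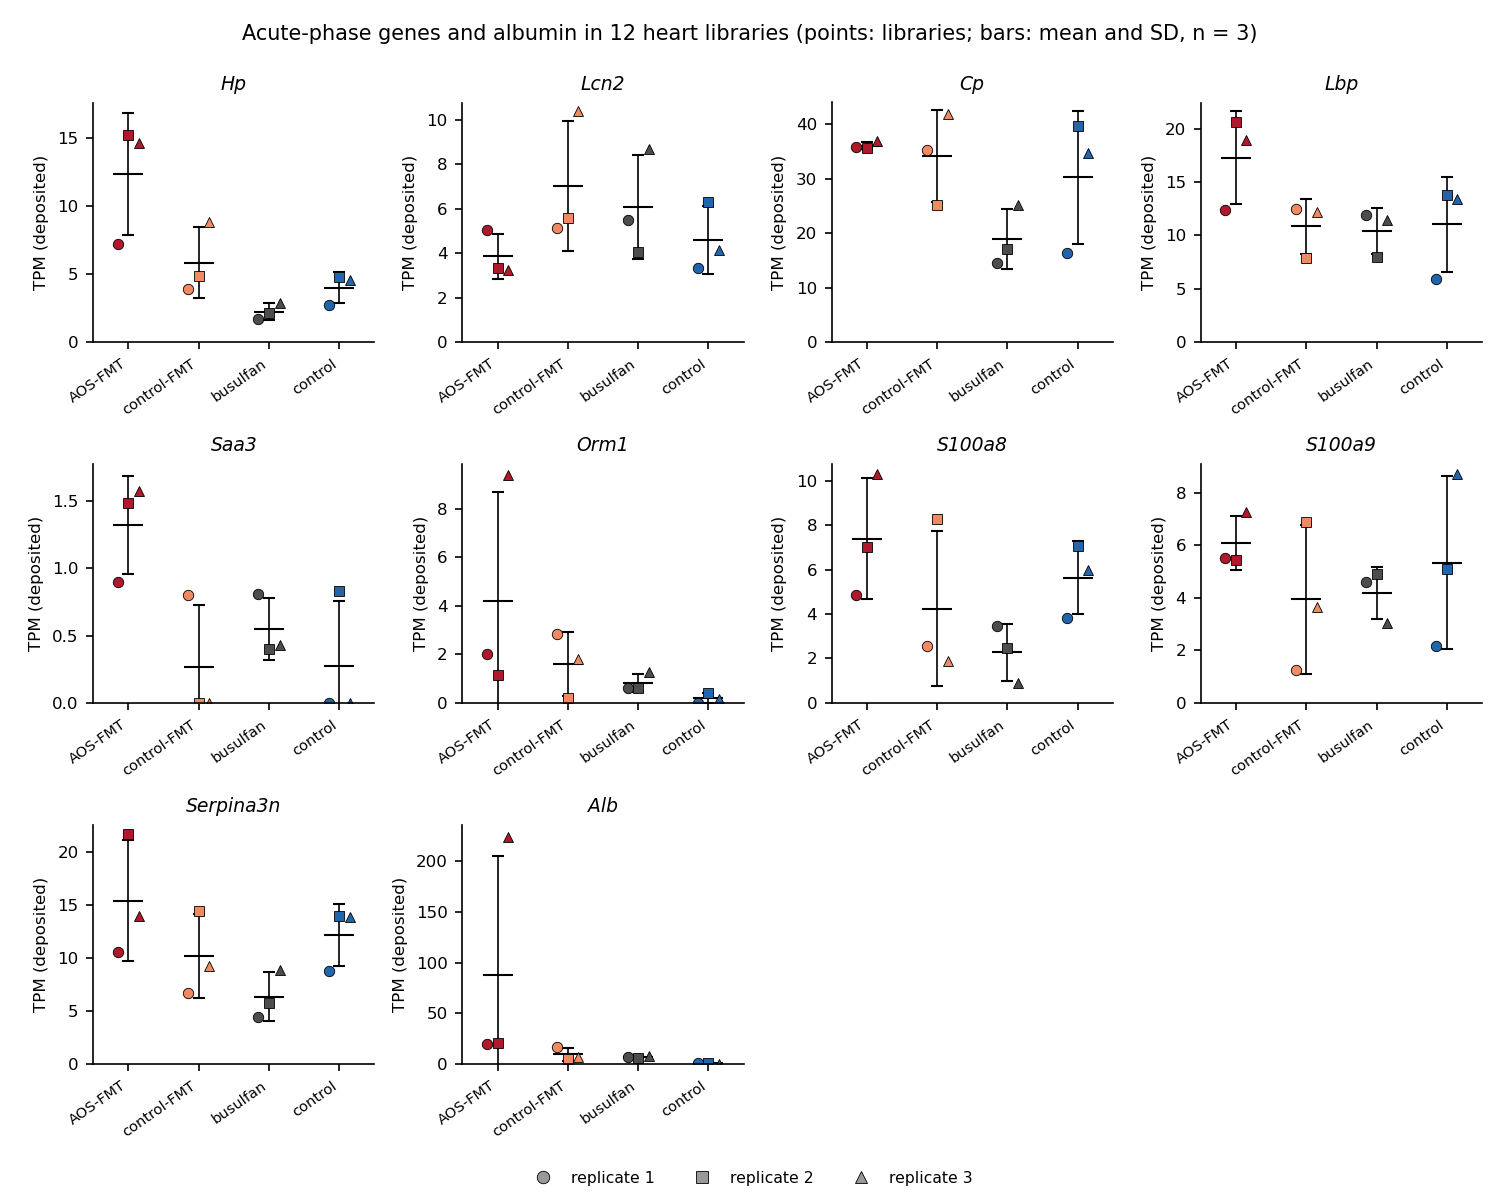
Deposited TPM of the 9 acute-phase genes and of Alb, 1 panel per gene, with each library as a point, shaped by replicate number and coloured by group. The horizontal bar is the group mean and the vertical bar its SD (n = 3), cut off at 0. Hp sits between 7.17 and 15.21 TPM in AOS-FMT and between 1.72 and 2.88 TPM in busulfan, while Alb is carried by AOS-FMT replicate 3 at 223.81 TPM.

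Like Hp, Alb had its highest mean in AOS-FMT and its next in control-FMT, but its lowest was in control and not in busulfan. Alb had 19.53, 20.59 and 223.81 TPM in AOS-FMT, 17.20, 4.65 and 6.45 TPM in control-FMT, 7.07, 6.30 and 8.21 TPM in busulfan and 1.35, 0.87 and 0.34 TPM in control. Busulfan and control thus ranked in opposite ways for the 2 genes: Alb was higher in every busulfan library than in any control library, whereas the mean of Hp was lower in busulfan. Within AOS-FMT, replicates 2 and 3 had nearly equal Hp at 15.21 and 14.62 TPM but Alb of 20.59 and 223.81 TPM. The ratio of Hp to Alb in TPM was 0.367, 0.739 and 0.0653 in AOS-FMT, 0.226, 1.03 and 1.36 in control-FMT, 0.243, 0.333 and 0.351 in busulfan and 1.99, 5.46 and 13.4 in control. Across the 12 libraries log2 Hp and log2 Alb had a Pearson r of 0.44, and of -0.02 once group means were subtracted, given as a description since the genes were picked for this relation. With AOS-FMT replicate 3 left out, the log2 fold change of Alb in AOS-FMT over busulfan was 1.37, against 3.49 with it, and that of Hp was 2.22, against 2.35.

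Hp was next set beside transcripts of atrial muscle, which it followed in some libraries and not in others. The 4 libraries with the highest atrial marker sums included the 2 highest in Hp, AOS-FMT replicates 2 and 3, and control replicates 2 and 3, which had only 4.75 and 4.55 TPM. With the mean log2 level of the atrial markers as a covariate, the log2 fold change of Hp was 1.54 ± 0.30 in AOS-FMT over busulfan, 0.28 ± 0.29 in AOS-FMT over control-FMT and 1.39 ± 0.22 in AOS-FMT over control (± SE). Without the covariate these were 2.35 ± 0.36, 1.07 ± 0.33 and 1.45 ± 0.34. The difference between the FMT groups was therefore smaller than its SE once atrial content was fitted, and that from control was almost as large.

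**Figure D2:**
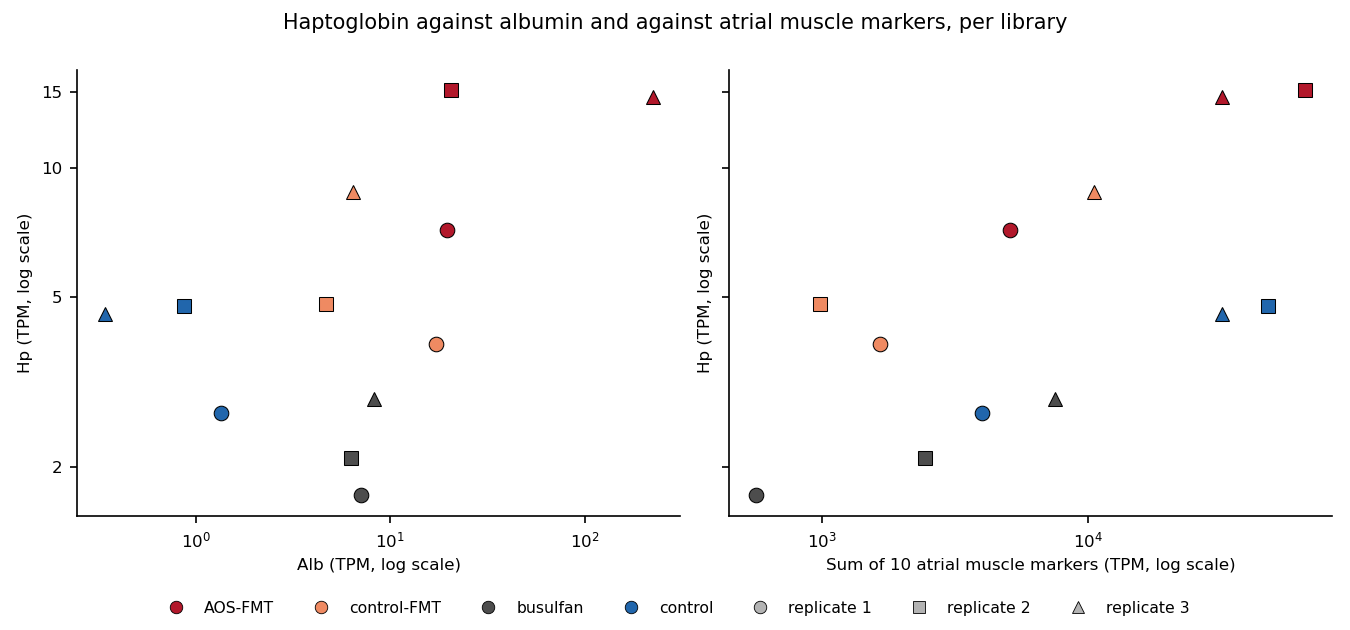
Hp in TPM on a log axis against Alb in TPM (left) and against the summed TPM of 10 atrial muscle markers (right), both also on log axes, with each of the 12 libraries as a point. AOS-FMT replicates 2 and 3 share Hp levels of 15.21 and 14.62 TPM at Alb levels of 20.59 and 223.81 TPM, and control replicates 2 and 3 reach atrial sums of 47683 and 32013 TPM at Hp levels of 4.75 and 4.55 TPM.

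Some fat transcripts varied with Hp and others did not. Adipoq, which encodes the fat hormone adiponectin, had 5.57, 6.23 and 1.83 TPM in AOS-FMT, 2.34, 0.44 and 8.39 in control-FMT, 0.11, 0.64 and 1.78 in busulfan and 0.36, 1.09 and 4.46 in control. Car3, a carbonic anhydrase abundant in fat, had 19.29, 33.88 and 26.97 TPM in AOS-FMT, 14.80, 4.06 and 44.60 in control-FMT, 1.37, 1.94 and 14.07 in busulfan and 2.27, 11.17 and 14.12 in control. Control-FMT replicate 3 was the highest of its group for Hp, Adipoq and Car3 alike. Other fat markers lay the other way: Cidea averaged 37.7 ± 8.77 TPM in AOS-FMT and 51.3 ± 8.43 TPM in busulfan, and Thrsp averaged 48.5 ± 17.3 TPM in AOS-FMT and 62.7 ± 7.75 TPM in busulfan (SD, n = 3 each). Of the 14 adipocyte markers, 9 had a higher and 5 a lower mean TPM in AOS-FMT than in busulfan. Higher and lower counts for AOS-FMT were 9 and 5 over control-FMT, and 12 and 2 over control. For control-FMT they were 11 and 3 over busulfan, and 12 and 2 over control. In busulfan over control, 4 were higher and 10 lower. Pearson r with Hp over the 12 libraries was 0.82 for Car3 and 0.70 for Adipoq, and 0.69 and 0.51 after subtracting group means. All 14 adipocyte markers summed to 2592 to 3328 TPM in AOS-FMT, 2539 to 3141 in control-FMT, 2649 to 2776 in busulfan and 2345 to 2789 in control, most of it from Fabp4 and Lpl, which heart itself expresses. With the adipocyte markers as covariate the log2 fold change of Hp was 1.99 in AOS-FMT over busulfan, 1.06 in AOS-FMT over control-FMT and 1.28 in AOS-FMT over control. With hepatocyte markers as covariate it was 2.09, 0.82 and 1.09 in the same order. What part fat, liver or atrial tissue had in the level of Hp was not tested further.

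Of the metal-binding members, Cp had the steadiest level in AOS-FMT and Lcn2 ran against the rest. Cp, on chromosome 3 from base 19956933 to base 20009750, encodes ceruloplasmin, a copper-carrying ferroxidase. It had 35.73, 35.63 and 36.83 TPM in AOS-FMT, 35.22, 25.13 and 41.89 in control-FMT, 14.56, 17.13 and 25.08 in busulfan and 16.39, 39.70 and 34.61 in control. All AOS-FMT libraries lay above all busulfan libraries, and control replicate 1 lay with the busulfan libraries. The log2 fold change of Cp in AOS-FMT over busulfan was 0.80 ± 0.25, and 0.34 ± 0.20 with the atrial covariate.

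Lcn2 encodes lipocalin-2, which binds bacterial iron carriers and is stored in neutrophil granules. It lies on chromosome 2 from base 32384637 to base 32387739. Its level was 5.03, 3.35 and 3.22 TPM in AOS-FMT, 5.12, 5.58 and 10.41 in control-FMT, 5.50, 4.06 and 8.68 in busulfan and 3.34, 6.32 and 4.15 in control. Every AOS-FMT library lay below every control-FMT library, though the nearest 2 were almost level at 5.03 and 5.12 TPM. The log2 fold change was -0.88 ± 0.36 in AOS-FMT over control-FMT and -0.78 ± 0.36 in AOS-FMT over busulfan, from 19 to 53 counts a library. Over control-FMT it was -0.50 without control-FMT replicate 3.

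Lbp carries bacterial lipopolysaccharide to CD14, and lies on chromosome 2 from base 158306493 to base 158332852. It had 12.34, 20.61 and 18.93 TPM in AOS-FMT, 12.43, 7.87 and 12.19 in control-FMT, 11.90, 7.95 and 11.42 in busulfan and 5.87, 13.78 and 13.40 in control. AOS-FMT replicates 2 and 3 were the highest of the series and replicate 1 lay within the control-FMT libraries. The log2 fold change was 0.62 ± 0.29 in AOS-FMT over busulfan, 0.66 ± 0.29 over control-FMT and 0.48 ± 0.28 over control. With the atrial covariate the first 2 of these were 0.12 ± 0.31 and 0.20 ± 0.30.

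Saa3 and Orm1 were detected by a handful of reads. Saa3, on chromosome 7 from base 46711998 to base 46719615, encodes a serum amyloid A made mostly outside the liver in mice. It had 2, 7 and 4 estimated counts in AOS-FMT, 2, 0 and 0 in control-FMT, 2, 1 and 2 in busulfan and 0, 2 and 0 in control. Orm1, on chromosome 4 from base 63344556 to base 63348163, encodes alpha-1-acid glycoprotein, a plasma carrier of basic drugs. It had 9, 7 and 48 counts in AOS-FMT, 14, 1 and 8 in control-FMT, 3, 3 and 6 in busulfan and 0, 2 and 1 in control. The 48 counts came from the library with the highest Alb, AOS-FMT replicate 3. Differences between groups of either gene were not tested at this depth. Their close relatives Orm2, Orm3, Saa1 and Saa2 had totals of 9, 8, 5 and 1 counts, and reads of such near-identical genes may have been divided between them.

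S100a8 and S100a9, neighbours on chromosome 3, encode the subunits of calprotectin, a metal-binding protein abundant in neutrophils and monocytes. S100a9, from base 90692630 to base 90695721, had 5.53, 5.45 and 7.27 TPM in AOS-FMT, 1.26, 6.91 and 3.67 in control-FMT, 4.59, 4.90 and 3.06 in busulfan and 2.17, 5.11 and 8.74 in control. S100a8, from base 90669071 to base 90670034, had 4.87, 7.02 and 10.29 TPM in AOS-FMT, 2.57, 8.26 and 1.90 in control-FMT, 3.45, 2.47 and 0.89 in busulfan and 3.84, 7.07 and 5.96 in control. The busulfan libraries were the lowest group for S100a8, below all AOS-FMT and all control libraries, on 1 to 4 counts each. Among all tested genes, 6.38% were lower without overlap in busulfan than in control, and 10.3% higher in AOS-FMT than in busulfan. S100a8 was not tested, so this is a description. The log2 fold change of S100a9 was 0.38 ± 0.55 in AOS-FMT over busulfan and 0.04 ± 0.54 over control, each within its SE. Neutrophil markers were scarce: the 13 measured of 15 listed summed to 6.27 to 7.36 TPM in AOS-FMT, 4.17 to 7.13 in control-FMT, 3.27 to 4.82 in busulfan and 4.47 to 7.14 in control. Ly6g and Mpo, which define neutrophils and their precursors, were at 0 in all libraries but AOS-FMT replicate 3, where they had 0.16 and 0.09 TPM.

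Serpina3n, on chromosome 12 from base 104406646 to base 104414334, encodes a secreted inhibitor of serine proteases, a mouse counterpart of human antichymotrypsin. It had 10.56, 21.76 and 14.01 TPM in AOS-FMT, 6.72, 14.50 and 9.31 in control-FMT, 4.45, 5.72 and 8.92 in busulfan and 8.77, 13.95 and 13.86 in control. The busulfan mean was the lowest at 6.36 ± 2.30 TPM (SD, n = 3), and every AOS-FMT library lay above every busulfan library. The log2 fold change was 1.18 ± 0.35 in AOS-FMT over busulfan, 0.58 ± 0.34 over control-FMT and 0.16 ± 0.33 over control. Its neighbours in the Serpina3 family share much sequence, and reads may be split among them. With counts summed over the family, the 3 log2 fold changes became 1.68, 1.27 and 1.06. To the 2480 counts of Serpina3n the sum added 1569 of Serpina3k, 991 of Serpina3i, 836 of Serpina3g and 398 of Serpina3c. Serpina3f, Serpina3m and Serpina3a added 260, 37.5 and 17. The sum also takes in reads that the other family genes gave themselves, so it does not measure Serpina3n alone.

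Serpina3n and Lcn2 are set side by side because both are textbook targets of inflammatory transcription factors, yet they lay on opposite sides of 0 in AOS-FMT over busulfan. Their promoters are shown from RefSeq on GRCm38.p6, 5′ to 3′ on the gene's strand. Each ends before the first base of the annotated gene, at chr12:104406458-104406645 on the plus strand for Serpina3n and chr2:32387740-32387989 on the minus strand for Lcn2. Capitals mark matches on either strand to the motifs searched.
Serpina3n: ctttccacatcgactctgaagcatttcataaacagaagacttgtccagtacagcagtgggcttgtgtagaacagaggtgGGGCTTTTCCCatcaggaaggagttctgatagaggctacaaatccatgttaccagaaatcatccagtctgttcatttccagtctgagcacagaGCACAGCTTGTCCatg
Lcn2: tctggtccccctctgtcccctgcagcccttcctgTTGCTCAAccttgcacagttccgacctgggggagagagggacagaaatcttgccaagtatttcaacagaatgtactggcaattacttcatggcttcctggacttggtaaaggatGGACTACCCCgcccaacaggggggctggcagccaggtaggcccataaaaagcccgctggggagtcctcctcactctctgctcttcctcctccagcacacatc
In Serpina3n the first capitals are 2 overlapping matches to an NF-kB motif, GGG and CC with 5 bases of any kind between them, which 45.8% of 32851 RefSeq promoter windows of 250 bases hold. The full window of Serpina3n held 4 such matches, and the overlapping pair at 43 to 34 and 42 to 33 bases before the start lies in the stretch not printed, past the first base of the annotated gene. The second are a match to the glucocorticoid receptor motif, GNACA and TGTNC with 3 bases of any kind between them, present in 0.387% of the windows, at 78 to 66 bases before the start the table uses. In Lcn2 the first capitals match the C/EBP motif TTGCNNAA, held by 9.56% of windows, at 216 to 209 bases before the start, and the second match the NF-kB motif at 102 to 93. No match to the STAT motif TTCNNNGAA, held by 7.02% of windows, was found in the 7 promoter entries of 6 members. Of the other motifs searched, AP-1 (TGANTCA) is held by 6.75% of windows and the TATA box (TATAAA) by 12.4%. Hp, Lbp and Orm1 had no entry. These matches are a description of letters, not of sites in use.

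The comparison of busulfan with control asked whether the drug alone moved these genes. Hp was chosen over all groups, also for not following Alb. Its p-values and overlaps, here and in the comparisons of control-FMT with busulfan and with control, are therefore a description. Hp, Cp and Serpina3n were lower in busulfan by edgeR's log2 fold changes, which were -0.90 ± 0.37 for Hp, -0.71 ± 0.25 for Cp and -1.02 ± 0.35 for Serpina3n, but none passed the threshold of an adjusted p under 0.05. The edgeR adjusted p-values were 0.396 for Hp, 0.346 for Cp and 0.341 for Serpina3n, and ran from 0.750 to 0.905 for Lcn2, Lbp and S100a9. Thus 0 of 6 tested members were called, where 0.0593% of all tested genes were. At an unadjusted p under 0.05 there were 3 of 6 members and 11.3% of all genes, and DESeq2 also called 0 members, beside 0.883% of genes. In TMM-scaled CPM, the counts of a library scaled to its depth, busulfan and control libraries did not overlap for Hp and Serpina3n, both lower, as 6.38% of all genes did. In TPM both genes overlapped, by busulfan replicate 3 and control replicate 1. The median log2 fold change was -0.53 over the 6 tested members and -0.01 over all genes. With the atrial covariate Hp was at -0.15 ± 0.30, Cp at -0.21 ± 0.20 and Serpina3n at -0.65 ± 0.39.

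Control-FMT against busulfan asked what FMT from the control source did after the drug. Hp was higher in every control-FMT library than in any busulfan library, at a log2 fold change of 1.28 ± 0.37, and Cp was at 0.76 ± 0.25 and Serpina3n at 0.60 ± 0.35. None was called, each with an edgeR adjusted p of 0.999. Here 0 of 6 members and 0% of all genes were called by edgeR, with 2 members and 2.65% of genes at an unadjusted p under 0.05, and DESeq2 called 0 members and 0.0148% of genes. Groups that did not overlap, with control-FMT higher, were found for Hp alone of the 6 members tested and for 5.41% of all genes. Lcn2, Lbp and S100a9 were at 0.10 ± 0.35, -0.04 ± 0.29 and -0.26 ± 0.58. Without control-FMT replicate 3, the library highest in Adipoq and Car3, Hp was at 0.88. With the atrial covariate it was 1.26 ± 0.25.

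Against control, no tested member passed the threshold in the control-FMT hearts. Log2 fold changes were 0.38 ± 0.35 for Hp, 0.47 ± 0.35 for Lcn2, 0.04 ± 0.25 for Cp, -0.18 ± 0.29 for Lbp, -0.60 ± 0.57 for S100a9 and -0.42 ± 0.34 for Serpina3n. The edgeR adjusted p-values ran from 0.769 to 0.986. No member and 0% of all genes were called, and 0 members had an unadjusted p under 0.05, against 8.20% of genes. DESeq2 called 0 members too, and 0.661% of genes. The value of Hp depended on 1 library and on atrial content: it was -0.02 without control-FMT replicate 3 and 1.11 ± 0.29 with the atrial covariate, an edgeR adjusted p of 0.314.

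The 3 comparisons with AOS-FMT bore most directly on the choice of Hp, so they are described without p-values. Over busulfan, the log2 fold changes ran from -0.78 for Lcn2 to 2.35 for Hp, with a median of 0.71 over the 6 tested members and 0.00485 over all genes. Hp alone passed the threshold, as 0.0445% of all genes did. It was chosen for its high level in AOS-FMT, so this call and those of Hp below are a description and no support. Hp, Cp and Serpina3n did not overlap with busulfan, all higher, which held for 10.3% of genes. Over control-FMT the range was -0.88 for Lcn2 to 1.07 for Hp, with 0 of 6 members and 0.0297% of genes called. Lcn2 was the 1 tested member without overlap there, lower in AOS-FMT, as 7.29% of genes were. Over control the range was -0.41 for Lcn2 to 1.45 for Hp, with 0 of 6 members and 0.0815% of genes called, and Hp alone did not overlap, higher in AOS-FMT as 6.63% of genes were. Lcn2 was the 1 tested member below 0 in each of the 3, which share the AOS-FMT libraries, and it kept that sign in all 26 alternatives of each. Cp was also below 0 over control-FMT with the atrial covariate, at -0.42, and Cp, S100a9 and Serpina3n lay on either side of 0 over control depending on the alternative. Hp kept its sign in all 26 alternatives of the 3 comparisons, but over busulfan it no longer passed the threshold without AOS-FMT replicate 2 or 3, control-FMT replicate 2, control replicate 2 or 3, or any 1 of the busulfan libraries, with log2 fold changes of 2.17 to 2.54. Under DESeq2, which called 0.972% of genes over busulfan and 0.906% over control, Serpina3n passed the threshold in addition to Hp over busulfan, and Hp passed it over control.

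**Figure D3:**
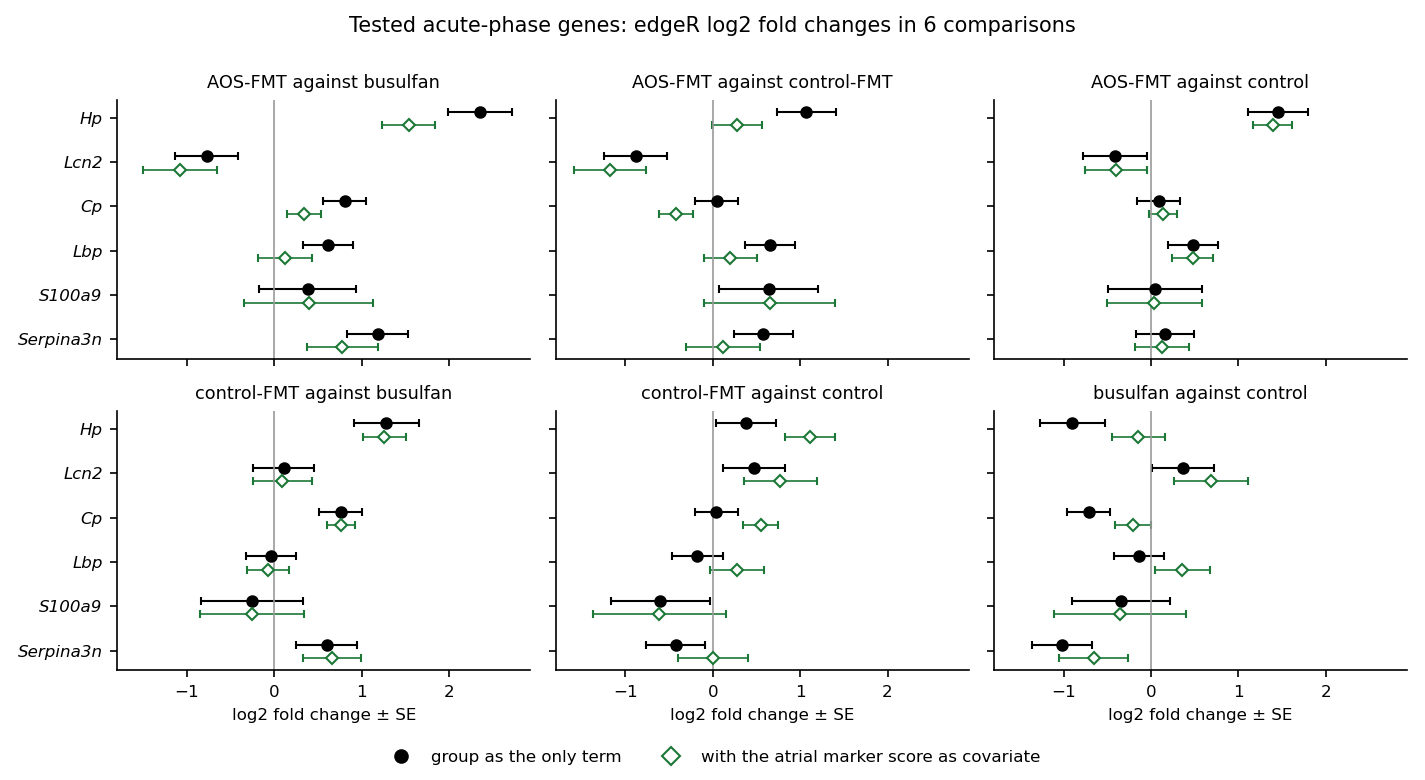
Log2 fold changes from edgeR for the 6 tested acute-phase genes in the 6 comparisons, with bars of ± SE, for the fit with group as the only term (filled) and with the atrial marker score added as covariate (open). Hp over control-FMT is at 1.07 in the plain fit and 0.28 with the covariate, and Lcn2 is below 0 in all 3 comparisons of AOS-FMT.

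Among inducers of the response, Il1b had the largest log2 fold change in AOS-FMT over busulfan. Il1b, the gene of interleukin-1 beta, had 1.99, 6.10 and 5.52 TPM in AOS-FMT, 0.38, 0.91 and 0.42 in control-FMT, 0.76, 0.48 and 0.30 in busulfan and 0.73, 2.61 and 2.19 in control. AOS-FMT did not overlap with control-FMT or busulfan, and the 4 libraries with the highest Il1b were those with the highest atrial sums, whose part in this was not tested. By edgeR, Il1b was at 2.92 ± 0.57 in AOS-FMT over busulfan (adjusted p = 0.168) and at 2.90 ± 0.57 over control-FMT (adjusted p = 0.197), short of the threshold, and DESeq2 called it in both. It was at -1.80 ± 0.59 in busulfan over control (edgeR adjusted p = 0.325). Tnf, which encodes tumour necrosis factor, was at -1.20 in AOS-FMT over busulfan (edgeR adjusted p = 0.373), with 0.50, 0.67 and 0.28 TPM in AOS-FMT and 1.55, 0.68 and 0.85 TPM in busulfan. Il6, the main inducer in liver, did not pass the filter and stayed at or below 0.87 TPM in every AOS-FMT library, against a highest value of 1.41 TPM in control replicate 3. Of 5 cytokines tested among 12 listed, edgeR called 0 in any of the 6 comparisons with all 12 libraries in the fit. Without AOS-FMT replicate 1 it called Il1b over busulfan, at 3.26.

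None of the signalling genes between cytokine and target passed the threshold by edgeR with all 12 libraries in the fit. Without AOS-FMT replicate 1, edgeR called Cebpa over busulfan, at a log2 fold change of 1.04. DESeq2 called Cebpd in AOS-FMT over busulfan and over control-FMT, at 0.97 and 1.05, and Nfkbia over busulfan, at 0.49. Stat3 had 54.76, 51.00 and 50.69 TPM in AOS-FMT and 43.40, 47.03 and 52.78 TPM in busulfan, at a log2 fold change of 0.02 (edgeR adjusted p = 0.960). Its feedback inhibitor Socs3 was at -0.07, with 5.43, 6.23 and 5.66 TPM in AOS-FMT and 3.31, 9.49 and 3.89 TPM in busulfan. Socs3 was at 0.41 ± 0.39 over control-FMT and 0.36 ± 0.38 over control. The NF-kB cofactor Nfkbiz was at 0.38 over busulfan. The C/EBP factors stood higher: Cebpd had 29.39, 45.26 and 51.90 TPM in AOS-FMT, 17.61, 18.81 and 23.83 in control-FMT, 18.57, 23.23 and 17.50 in busulfan and 28.67, 23.65 and 34.46 in control. Cebpd in AOS-FMT was above control-FMT and busulfan without overlap, at 0.98 ± 0.25 over busulfan (edgeR adjusted p = 0.259), and Cebpa and Cebpb were at 0.82 and 0.60. Nfkbia, the NF-kB inhibitor and target, had 54.89, 60.43 and 69.22 TPM in AOS-FMT and 41.62, 43.03 and 35.55 TPM in busulfan, at 0.50 ± 0.13 (edgeR adjusted p = 0.242). Of 21 signalling genes tested among 24, and 11 receptors among 13, edgeR called 0 in each comparison with all 12 libraries in the fit. In AOS-FMT over busulfan 4 signalling genes and 3 receptors were higher at an unadjusted p under 0.05 and 0 lower, beside 13.6% of all genes in either direction.

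**Figure D4:**
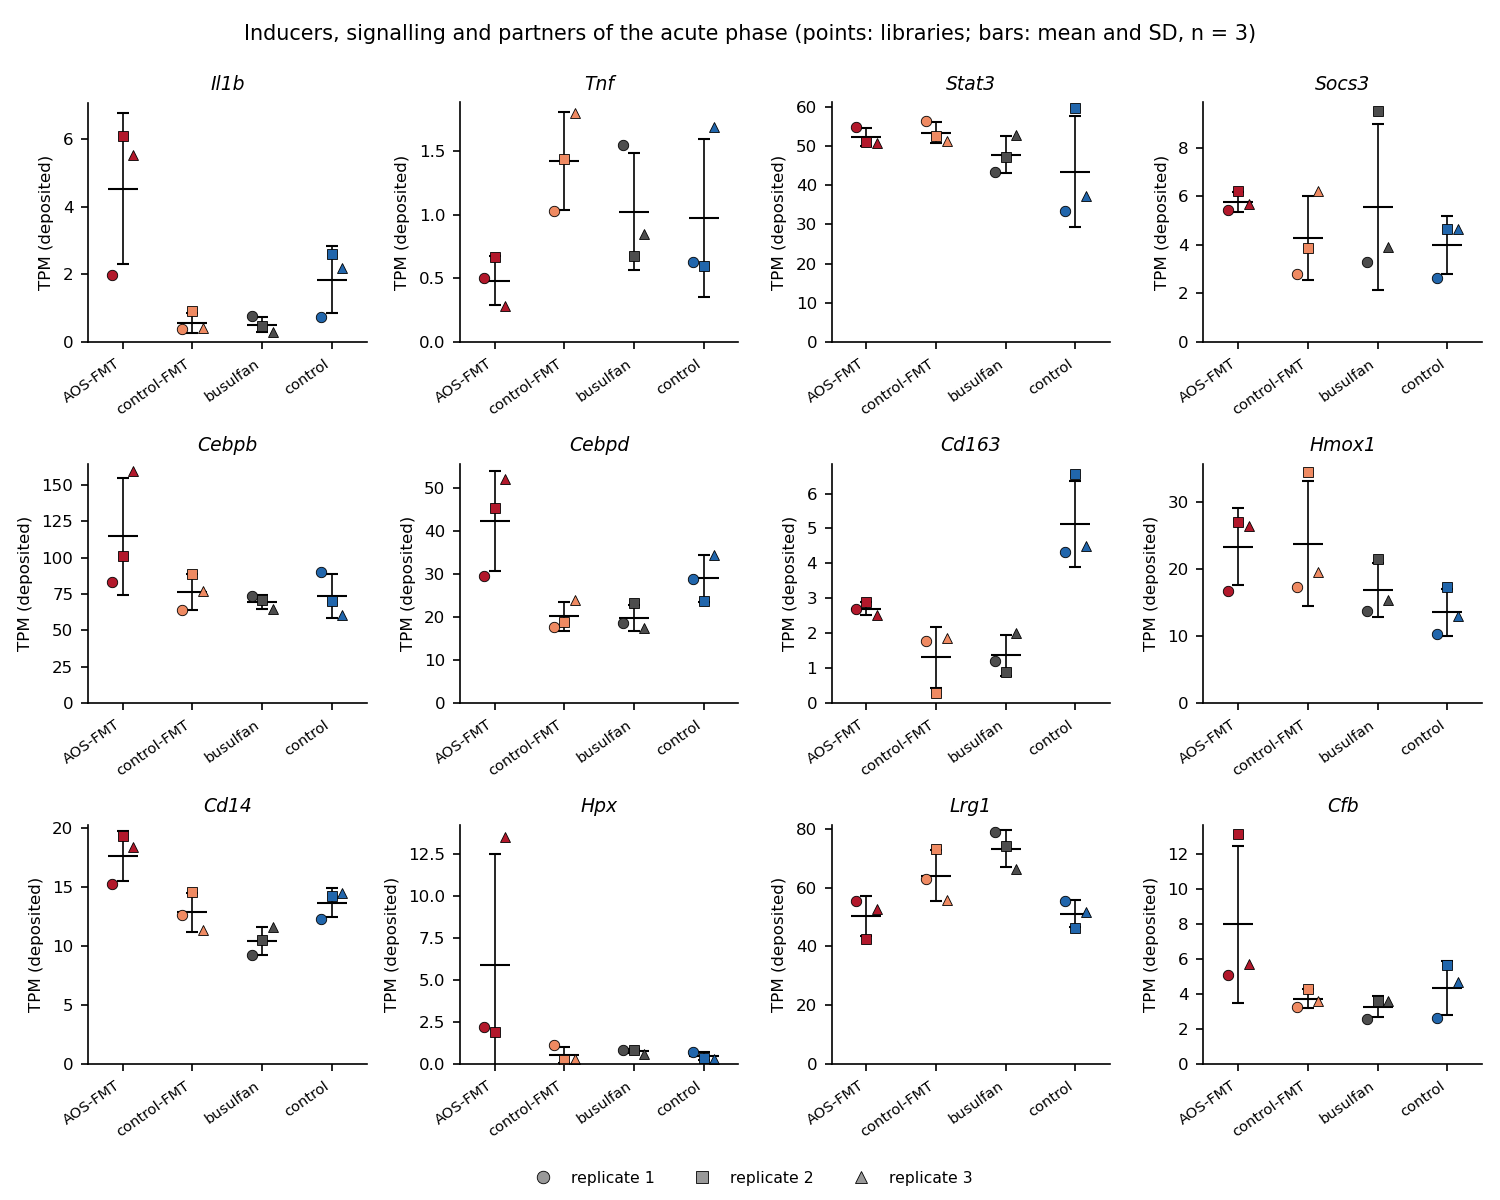
Deposited TPM of 12 genes that induce, relay or partner the acute-phase response, 1 panel per gene, with libraries as points by group and replicate and bars of mean and SD (n = 3), cut off at 0. Il1b lies between 1.99 and 6.10 TPM in AOS-FMT and at or below 0.91 TPM in control-FMT and busulfan, Stat3 spans 50.69 to 54.76 TPM in AOS-FMT and 43.40 to 52.78 TPM in busulfan, and Cd163 is highest in the 3 control libraries.

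Receptors and partners of the members included the one that takes up haptoglobin. Cd163, the macrophage receptor of haemoglobin bound to haptoglobin, had 2.70, 2.90 and 2.51 TPM in AOS-FMT, 1.79, 0.30 and 1.85 in control-FMT, 1.19, 0.89 and 2.01 in busulfan and 4.32, 6.55 and 4.51 in control. All control libraries lay above all others, and all AOS-FMT libraries above all busulfan and control-FMT libraries. By edgeR it was at -1.98 ± 0.45 in busulfan over control (adjusted p = 0.229) and at -2.13 ± 0.45 in control-FMT over control (adjusted p = 0.191), and DESeq2 called it in both. The 12 macrophage markers, Cd163 and Cd14 among them, summed to 614 to 908 TPM in AOS-FMT, 487 to 712 in control-FMT, 395 to 563 in busulfan and 522 to 697 in control. Hmox1, which breaks down the haem so delivered, had 16.67, 26.93 and 26.31 TPM in AOS-FMT and 13.72, 21.45 and 15.37 TPM in busulfan, at 0.35 (edgeR adjusted p = 0.554). Cd14, the receptor that LBP loads, had 15.24, 19.29 and 18.39 TPM in AOS-FMT, 12.59, 14.61 and 11.33 in control-FMT, 9.20, 10.47 and 11.58 in busulfan and 12.25, 14.27 and 14.45 in control. It was at 0.65 ± 0.15 in AOS-FMT over busulfan (edgeR adjusted p = 0.219), again without overlap. Of 19 partners tested among 24, edgeR called 0 in each comparison with all 12 libraries in the fit.

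Other acute-phase proteins included both liver products and genes used more widely. Lrg1, a leucine-rich glycoprotein also made by endothelium, had 55.52, 42.49 and 52.81 TPM in AOS-FMT, 63.13, 73.15 and 55.91 in control-FMT, 79.09, 74.33 and 66.53 in busulfan and 55.41, 46.38 and 51.63 in control. It was lower in AOS-FMT than in busulfan without overlap, at -0.67 ± 0.17 (edgeR adjusted p = 0.242), the direction also of Lcn2. Cfb, complement factor B, was at 1.20 ± 0.34 in AOS-FMT over busulfan (edgeR adjusted p = 0.279), with 5.08, 13.16 and 5.70 TPM in AOS-FMT and 2.59, 3.61 and 3.61 TPM in busulfan. Hpx, which encodes the haem carrier haemopexin, had 2.20, 1.88 and 13.53 TPM in AOS-FMT, 1.10, 0.26 and 0.28 in control-FMT, 0.85, 0.85 and 0.62 in busulfan and 0.72, 0.34 and 0.29 in control. Like Alb, Hpx was highest in AOS-FMT replicate 3, and it is also on the hepatocyte list. Its log2 fold change was 2.78 ± 0.78 in AOS-FMT over busulfan (edgeR adjusted p = 0.279). Hamp, which encodes the iron hormone hepcidin, had 187, 1010 and 1186 TPM in AOS-FMT, 117, 8.23 and 90.2 in control-FMT, 6.19, 31.9 and 278 in busulfan and 15.8, 1612 and 1702 in control, so its 4 highest libraries were again the 4 highest in atrial markers.

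Over busulfan, 18 of 20 tested acute-phase proteins outside the set had a log2 fold change above 0 in AOS-FMT, with a median of 1.62, and so did all 5 tested negative acute-phase proteins other than Alb, with a median of 2.76, against 50.7% and a median of 0.00485 for all genes. The filter on low counts can admit a gene through 1 group alone, and admission through AOS-FMT favours values above 0. For example, Hpx averaged 5.35 CPM in AOS-FMT and 0.770, 0.508 and 0.492 CPM in busulfan, control-FMT and control. How many genes this touched was not counted. The negative proteins are those of which liver makes less in inflammation, and here they stood higher beside the positive ones. Trf, the transferrin gene, had 40.04, 55.20 and 79.72 TPM in AOS-FMT and 17.33, 23.21 and 31.24 TPM in busulfan. Rbp4, a retinol carrier, had 8.88, 18.89 and 28.12 TPM in AOS-FMT and 1.72, 2.18 and 3.58 TPM in busulfan. Control libraries, with Alb at or below 1.35 TPM, had 24.18, 60.11 and 29.19 TPM of Trf and 2.02, 4.95 and 10.11 TPM of Rbp4. From which tissue these transcripts came was not tested. Their edgeR adjusted p-values were 0.242 for Trf and 0.219 for Rbp4. Fga, Fgb, Fgg, Hpx and Serpina1a to Serpina1d of the first list, and Alb, Apoa1, Ttr and Ahsg of the second, are hepatocyte markers as well. Without AOS-FMT replicate 3, the library richest in hepatocyte markers, the medians were 1.09 over 21 genes tested and 1.41 over 5. By edgeR, 0 genes of both lists were called in all 6 comparisons, with all 12 libraries and group as the only term. At an unadjusted p under 0.05 there were 12 acute-phase proteins higher and 1 lower in AOS-FMT than in busulfan, and 5 negative ones other than Alb higher, beside 13.6% of all genes in either direction. Without AOS-FMT replicate 3 there were 7 higher and 1 lower, and 4 negative ones higher, beside 11.4% of all genes. DESeq2 called 13 genes of the 6 lists in AOS-FMT over busulfan, 4 over control-FMT and 7 over control, where it called 0.972%, 0.238% and 0.906% of all genes in the same order. The lists held 20, 6, 5, 11, 21 and 19 genes that passed the filter. Fgb, Serpina1c, Serpina1d, Hpx, Apoa1 and Ttr, called both over busulfan and over control, are hepatocyte markers. Fgb, for example, had 1.70, 2.40 and 25.61 TPM in AOS-FMT replicates 1 to 3.

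The genes whose profile was most like that of Hp were not acute-phase genes. Among 10471 genes with a mean of at least 5 CPM, the highest Pearson r with Hp over the 12 libraries belonged to Rsu1 (0.96), Chst12 (0.93), Gucy1b1 (0.91), Ccrl2 (0.90) and Nup85 (0.89). Rsu1 averaged 70.4 ± 5.31 TPM in AOS-FMT, 62.3 ± 3.80 in control-FMT, 51.2 ± 2.92 in busulfan and 53.8 ± 9.33 in control (SD, n = 3 each), a far narrower range than that of Hp. After subtracting group means the 5 highest were Mfsd10 (0.95), Coil (0.94), Slc35a5 (0.94), Junb (0.94) and Csrp1 (0.93). Among the members, r with Hp was 0.74 for Cp, 0.73 for Serpina3n, 0.64 for Lbp, 0.29 for S100a9 and -0.36 for Lcn2 over all libraries, and 0.55, 0.61, 0.56, 0.35 and 0.31 within groups. The libraries share atrial, fat and liver content as described, so these values are a description.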

How the data were processed

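RNA from mouse hearts was sequenced by the study, and the authors deposited 1 table of the 12 libraries with estimated read counts, TPM and FPKM per gene, per the file headers. Per the submitters' processing notes, Bowtie 0.12.2 and mm10 were used. How reads were counted, with which annotation and whether by strand, is not given in the sources used here, so antisense or overlapping reads could not be told apart. FPKM values and the authors' group means were not used. Gene positions and promoters come from RefSeq tables of GRCm38.p6, which matched 17487 of 17536 gene IDs.

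Estimated counts, as deposited by the authors, were rounded to whole numbers, filtered with filterByExpr and scaled by TMM. They were fitted with edgeR 4.0.16 (robust quasi-likelihood test, R 4.3.3) over all 12 libraries in 1 model, with Benjamini-Hochberg adjustment over 13489 genes and a call at an adjusted p under 0.05. The fitting code was tested on simulated data. Fold changes are log2 values ± SE, written as the first group named over the second. Levels are the authors' deposited TPM, as mean ± SD over 3 libraries where a mean is given. Whether groups overlap was judged in TMM-scaled CPM unless TPM is named. Alternatives used DESeq2 1.42.0, limma 3.58.1, covariates from marker lists, the paralog families summed and each library left out.

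The members and all gene lists were chosen with earlier results of these data known. Of the pathway lists, called genes, up to 3 genes of smallest p per list and comparison and 11 fixed genes could be named. Named beyond that rule, after their values were seen, were Adipoq, Car3, Ly6g, Mpo, Fabp4, Lpl, Cidea and Thrsp.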

Additional observations from a re-analysis of the deposited data

How the results depend on the processing

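The number of members called in AOS-FMT over busulfan was 1, and became 2 with DESeq2. It was 0 with limma-voom, with limma-trend on log2(TPM + 1) or log2(TPM + 0.1), with only the 6 libraries compared in the fit, and with the liver, fat, neutrophil or atrial markers as covariate, and it ran from 0 to 1 when each library was left out. It was 0 without AOS-FMT replicates 2 or 3, control-FMT replicate 2, any busulfan replicate, or control replicates 2 or 3. The number called in AOS-FMT over control was 0, and 1, Hp, with DESeq2, the replicate block or the atrial covariate. Hp was chosen for its level in AOS-FMT, so these counts show how the fit responds and do not test Hp. By edgeR, some alternatives also called pathway genes. In AOS-FMT over busulfan these were Il1b and Cebpa without AOS-FMT replicate 1, and Rbp4 with the replicate block. Over control they were Itih4 with the replicate block or atrial covariate, and Fgb without AOS-FMT replicate 1. Serpina1d and Apoa1 were called there without AOS-FMT replicate 3. Cd163 was called in busulfan over control without control-FMT replicate 2, and Itih4 in control-FMT over control with the atrial covariate. Of 1092 alternative log2 fold changes of the members and Alb, 1046 kept their call and direction or moved by less than the spread between replicates, 18 moved by more than that spread and 28, in the comparisons without AOS-FMT, changed sign. Among the uncalled values with AOS-FMT, the sign was kept in 25 of 26 alternatives for S100a9 over busulfan, in 22 of 26 for Cp over control-FMT, and over control in 23 for Cp, 22 for S100a9 and 25 for Serpina3n. In busulfan over control, Lbp was 0.020 with the fat and 0.357 with the atrial covariate, and S100a9 was 0.077 with the neutrophil covariate. In control-FMT over busulfan, Lbp was 0.043 without scaling, 0.044 in TPM + 1 and 0.047 in TPM + 0.1, Alb was -0.031 with the liver covariate and Lcn2 was -0.343 with the fat covariate. In control-FMT over control, Lbp was 0.035 in TPM + 1, 0.045 in TPM + 0.1 and 0.278 with the atrial covariate, Cp was -0.035 with the liver and -0.118 with the fat covariate, and Serpina3n was 0.0039 with the atrial covariate. The cause was not tested.

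Leaving out 1 library at a time moved small values across 0. In busulfan over control the range was -0.403 to 0.0908 for Lbp and -0.683 to 0.234 for S100a9. In control-FMT over busulfan it was -0.891 to 0.166 for S100a9, -0.468 to 0.624 for Alb, -0.201 to 0.135 for Lbp and -0.282 to 0.411 for Lcn2. In control-FMT over control it was -0.437 to 0.0563 for Lbp, -0.0232 to 0.603 for Hp and -0.209 to 0.229 for Cp. DESeq2 called more genes in all than edgeR: 131 against 6 in AOS-FMT over busulfan, 32 against 4 over control-FMT, 122 against 11 over control, 119 against 8 in busulfan over control, 2 against 0 in control-FMT over busulfan and 89 against 0 in control-FMT over control. The replicate numbers gave no steady pairing: same-numbered libraries of different groups had correlations of their deviations from group means of -0.176 to 0.432, with 10 of 18 over 0.1. Their mean was 0.106, against -0.053 for libraries of different numbers. Whether equal numbers stand for anything shared was not tested. With the replicate block, edgeR called 14 genes in AOS-FMT over busulfan, 25 in AOS-FMT over control and 7 in control-FMT over control, and Hp was at 2.33, 1.43 and 0.35. Saa3, Orm1 and S100a8 are limited by depth, and no statement about their groups rests on a test.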

Other observations

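Marker lists of further cell types, outside the comparisons above, also varied between libraries. The 10 fibroblast markers summed to 3037, 5604 and 3629 TPM in AOS-FMT, 2887, 2297 and 3075 in control-FMT, 1918, 2383 and 2824 in busulfan and 2430, 3980 and 4333 in control. The 10 mesothelial markers summed to 18.4, 89.9 and 20.4 TPM in AOS-FMT, 11.7, 15.9 and 34.6 in control-FMT, 7.97, 5.90 and 23.5 in busulfan and 4.25, 130.0 and 15.8 in control, with replicate 2 highest in AOS-FMT and in control. The 7 erythroid markers summed to 26568 to 38752 TPM in AOS-FMT, 16601 to 29219 in control-FMT, 10413 to 19437 in busulfan and 11599 to 58277 in control. The 10 endothelial markers were more even, at 2596 to 2852 TPM in AOS-FMT, 2215 to 2733 in control-FMT, 2040 to 2449 in busulfan and 1992 to 2655 in control, and the 6 measured lung and airway markers stayed at or below 10.5 TPM in AOS-FMT and 1.37 TPM elsewhere.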
